A study of Mus musculus with 2 samples.

Results

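Gata1 and Gata2 encode zinc finger transcription factors of the GATA family, and 7 further genes encode proteins known to work with GATA1 in red cell precursors. The 9 genes, picked by symbol from the 27998 gene rows of each library, are Gata1, Gata2, Zfpm1, Tal1, Lmo2, Ldb1, Lyl1, Gfi1b and Nfe2. Each was followed through the cell clusters that the authors named in the mouse fetal liver. In blood development GATA2 acts in stem and progenitor cells, and GATA1 takes over at shared binding sites when progenitors commit to the erythroid or megakaryocytic lineage, an exchange known as the GATA switch. FOG1, the product of Zfpm1, is a cofactor that binds GATA1. The basic helix-loop-helix factor TAL1 or its relative LYL1 is joined to GATA1 by the adaptors LMO2 and LDB1 in a complex on erythroid enhancers, the repressor GFI1B is a partner and a target of GATA1, and NF-E2, of which Nfe2 encodes the large subunit, acts at the globin locus and in platelet formation.

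The study asked how blood cells arise in the mouse embryo and what the receptor KIT does in this process. The cells described here came from 1 liver of a wild-type C57BL/6 mouse embryo at E12.5 (embryonic day after mating), were sorted to remove debris, dead cells and doublets, and were run as 2 technical replicates on the 10x Genomics Chromium system, called library 1 and library 2 below. No group was treated or mutant, so the groups are cell clusters of 1 liver. The deposited cell table spells the stem and progenitor cluster HPSC. It gives 6 subclusters from the first erythroid progenitors (Ery 1) to the last erythroblasts (Ery 6), and further clusters of primitive erythroblasts (EryP), megakaryocytes (Mk), granulocytes (G), monocytes with Kupffer cells (Mo/KC), endothelial cells (EC) and hepatoblasts (Hepa).

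Library 1 held 5480 cells of the table with 51969226 unique molecular identifiers (UMIs, each standing for 1 captured transcript) and library 2 held 5057 cells with 62738015 UMIs, with a median of 6261 and 9774 UMIs per cell. The libraries shared 31 cell barcodes. Globin transcripts took 1.59% and 2.94% of the UMIs of HPSC but 58.1% and 78.5% of those of Ery 6. Levels are therefore given as counts per 1000000 UMIs of a cluster (CPM), as CPM after globin UMIs were left out of the total (non-globin CPM), and as UMIs per cell. With 1 liver there was no test between animals and no p-value. Intervals are exact 95% intervals for counting error only, and an SD over the 2 libraries describes technical spread. Levels were compared within a gene, since transcripts of different genes are captured with different efficiency. All 6 Mk markers and all 10 G markers were highest in the cluster of that name in both libraries, against 4 of 6 HPSC markers.

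In the GENCODE annotation of GRCm38, the build the authors used, Gata1 lies at chrX:7959260-7978071 (minus strand), Gata2 at chr6:88193891-88207032 (plus), Zfpm1 at chr8:122282141-122337251 (plus), Tal1 at chr4:115056426-115071755 (plus) and Lmo2 at chr2:103957986-103981878 (plus). Ldb1 lies at chr19:46031570-46045214 (minus), Lyl1 at chr8:84701457-84704715 (plus), Gfi1b at chr2:28609450-28621982 (minus) and Nfe2 at chr15:103248212-103258403 (minus). Zfpm1 overlaps Gm20388 on its own strand, so its counts are uncertain where both could claim a read, and Lmo2, Ldb1 and Lyl1 overlap genes on the opposite strand (4931422A03Rik, Pprc1 and Nfix).

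Promoters of 7 of the 9 genes were matched by symbol in RefSeq, all but Lmo2 and Nfe2. The sequences below show the DNA ahead of the start of the exchanging pair and of 2 partners in which a GATA motif was found, 250 bases each, 5′ to 3′ on the strand of the gene, from RefSeq on GRCm38.p6. Gata1 is at chrX:7967911-7968160 (minus strand), Gata2 at chr6:88193641-88193890 (plus strand), Tal1 at chr4:115056176-115056425 (plus strand) and Gfi1b at chr2:28621983-28622232 (minus strand). Capitals mark the bases AGATAA or TGATAA or AGATAG or TGATAG on either strand.
Gata1 promoter: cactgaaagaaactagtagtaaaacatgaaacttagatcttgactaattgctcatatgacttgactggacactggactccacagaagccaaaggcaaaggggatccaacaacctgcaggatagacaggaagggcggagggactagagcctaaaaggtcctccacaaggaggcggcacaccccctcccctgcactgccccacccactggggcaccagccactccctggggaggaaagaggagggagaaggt
Gata2 promoter: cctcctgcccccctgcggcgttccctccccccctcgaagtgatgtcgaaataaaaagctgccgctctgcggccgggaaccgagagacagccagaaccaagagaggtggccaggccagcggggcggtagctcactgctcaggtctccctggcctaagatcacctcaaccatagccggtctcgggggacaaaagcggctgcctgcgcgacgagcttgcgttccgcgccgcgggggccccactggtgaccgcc
Tal1 promoter: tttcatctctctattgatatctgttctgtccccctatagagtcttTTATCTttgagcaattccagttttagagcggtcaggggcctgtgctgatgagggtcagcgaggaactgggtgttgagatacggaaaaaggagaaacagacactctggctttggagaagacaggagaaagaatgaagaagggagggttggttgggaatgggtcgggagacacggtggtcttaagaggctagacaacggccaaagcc
Gfi1b promoter: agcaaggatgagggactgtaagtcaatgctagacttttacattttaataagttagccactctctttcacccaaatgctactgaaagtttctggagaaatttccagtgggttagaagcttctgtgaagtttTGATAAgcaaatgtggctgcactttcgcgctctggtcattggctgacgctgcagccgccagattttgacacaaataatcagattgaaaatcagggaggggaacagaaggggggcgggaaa
The capitals in Tal1 read AGATAA on the opposite strand and begin 205 bases before the start, and those in Gfi1b read TGATAA and begin 120 bases before it. Among the 11 listed promoters of the 7 genes, 3 held a match, the third being 1 promoter of Ldb1 with AGATAA on the opposite strand at 240 and 200 bases before its start. Gata2 and Tal1 each have 2 listed promoters, of which the first is shown. The second, at chr6:88198414-88198663 for Gata2 and chr4:115057561-115057810 for Tal1, held no match. Of all 32851 promoters of this length, 26.5% held at least 1 match. A match is a match of letters and does not show that a factor binds there.

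Gata2 was high in HPSC and in Ery 1 and Gata1 from Ery 1 onwards, and the exchange lay between HPSC and Ery 2. Gata2 stood at 42.3 CPM (35.7 to 49.8, 146 UMIs) in the HPSC of library 1 and 34.6 CPM (28.4 to 41.7, 108 UMIs) in those of library 2. Gata1 stood there at 12.8 CPM (9.27 to 17.1, 44 UMIs) and 14.1 CPM (10.2 to 18.9, 44 UMIs). In Ery 1, the first erythroid subcluster, Gata1 was at 164 and 166 CPM while Gata2 was still at 30.8 and 29.5 CPM. The Gata1 level was thus 12.8-fold (9.51 to 17.7) and 11.8-fold (8.73 to 16.3) above HPSC, whereas Gata2 was only 1.37-fold and 1.17-fold lower.

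The large step of Gata2 followed between Ery 1 and Ery 2. From 304 and 274 UMIs in Ery 1 it went to 5 and 9 UMIs in the more numerous cells of Ery 2, levels of 0.544 and 1.03 CPM. That was 56.6-fold (24.0 to 175) and 28.5-fold (14.8 to 63.1) lower. From Ery 3 to Ery 6, Gata2 gave between 1 and 5 UMIs per library and subcluster, so no order among these subclusters can be read. Gata1 was not lower at this step and stood at 205 and 183 CPM in Ery 2.

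Over the whole range from HPSC to Ery 6, Gata2 was 60.2-fold (23.0 to 224) and 68.5-fold (28.5 to 215) lower, a log2 change of -6.01 ± 0.131 (SD, n = 2 technical libraries). Gata1 was 10.4-fold (7.70 to 14.5) and 4.54-fold (3.34 to 6.31) higher, a log2 change of 2.78 ± 0.85. The direction was the same in both libraries, but the size for Gata1 differed between them by more than counting error, and the globin share of Ery 6 differed alongside it.

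The ratio of Gata2 to Gata1 UMIs does not depend on the globin share of a cell. It was 3.32 and 2.45 in HPSC, 0.188 and 0.178 in Ery 1, 0.00266 and 0.00566 in Ery 2, and 0.00528 and 0.0079 in Ery 6. From HPSC to Ery 6 it was lower by 629-fold (221 to 2398) in library 1 and 311-fold (118 to 1007) in library 2. RNA free in the suspension, described below, bears on both ends of this range. Gata1 of HPSC stood at 7.50% and 8.49% of its level in free RNA and Gata2 of Ery 6 at 5.34% and 5.50%. The intervals leave this out, and the part of free RNA in the size of the folds was not tested. The part of the ratio change between HPSC and Ery 1 was 17.6-fold (12.2 to 25.8) and 13.8-fold (9.37 to 20.5), and the part between Ery 1 and Ery 2 was 70.9-fold (29.9 to 220) and 31.5-fold (16.2 to 69.7). The change was therefore complete by Ery 2 within the precision of the few Gata2 UMIs left, and the first part was carried by Gata1 and the second by Gata2.

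**Figure D1:**
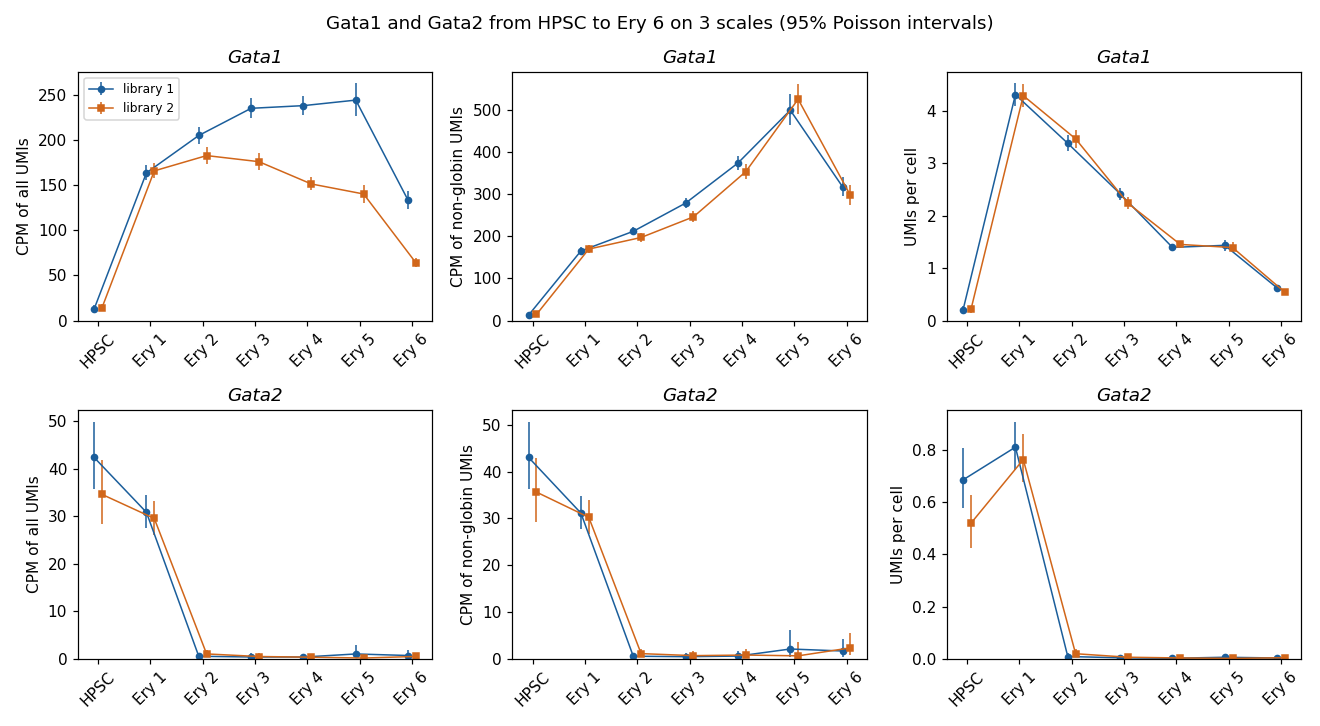
Gata1 and Gata2 from HPSC to Ery 6 as CPM, as non-globin CPM and as UMIs per cell (vertical axes), with 1 line per library and 95% Poisson intervals. Gata2 is present in HPSC and Ery 1 and near the axis from Ery 2 onwards on all 3 scales, whereas the height of Gata1 in the late subclusters depends on the scale.

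How Gata1 behaved after Ery 1 depended on the scale. As CPM it was 1.23-fold and 2.59-fold lower in Ery 6 than in Ery 1. As non-globin CPM it reached 499 and 526 in Ery 5 and was 317 and 297 in Ery 6, 1.92-fold (1.76 to 2.09) and 1.75-fold (1.59 to 1.92) above the 165 and 170 of Ery 1. Per cell it went from 4.31 and 4.29 UMIs in Ery 1 to 0.622 and 0.538 in Ery 6, 6.92-fold and 7.96-fold lower, while the median UMIs per cell went from 26146 and 25977 to 4378 and 7882.5. Late erythroblasts thus held fewer Gata1 UMIs per cell, and a larger part of their remaining non-globin UMIs was Gata1. Less captured RNA per cell and less Gata1 in the cell cannot be told apart from these counts.

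Cell by cell, the exchange was seen as a change of which gene was detected. Each cell was thinned at random to 3600 UMIs so that total depth did not set the shares. This left out 2 and 0 of the HPSC, none of Ery 1, and 237 and 0 of Ery 6. The 3600 UMIs include globin, which took 1.07% and 2.37% of the UMIs of Ery 1 but 58.1% and 78.5% of those of Ery 6. A thinned Ery 6 cell thus kept fewer non-globin UMIs, and the part of this in its shares was not tested. A Gata2 UMI was then seen in 14.7% and 12% of HPSC, in 10.1% and 9.19% of Ery 1, and in 0.306% and 0.17% of Ery 6. A Gata1 UMI was seen in 4.27% and 5.77% of HPSC, in 42.4% and 43.5% of Ery 1, and in 36.4% and 18.7% of Ery 6. Without thinning, 36.2% and 35.1% of HPSC had a Gata2 UMI, 15.5% and 16.3% a Gata1 UMI, and 95.2% and 93.0% of Ery 1 a Gata1 UMI. Both genes were seen together in 12 of 375 and 12 of 359 thinned Ery 1 cells, in 0 of 211 thinned HPSC of library 1, which allows up to 1.42% of cells at that depth, and in 1 of 208 of library 2. Without thinning, both were seen in 93 of 375 (24.8%) and 89 of 359 (24.8%) Ery 1 cells and in 13 of 213 (6.10%) and 12 of 208 (5.77%) HPSC. Of the 103 and 98 Ery 1 cells with a Gata2 UMI before thinning, 93 and 89 thus had a Gata1 UMI as well. This stands beside the 95.2% and 93.0% of all Ery 1 cells with a Gata1 UMI. Thinned cells miss most transcripts of this abundance.

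Free RNA bears directly on the low Gata1 level of HPSC. Barcodes with 1 to 50 UMIs, which hold RNA from the suspension and not a cell, had Gata1 at 170 and 166 CPM and Gata2 at 13.2 and 9.18 CPM. The Gata1 level of HPSC was 7.50% (5.45 to 10.1) and 8.49% (6.17 to 11.4) of the free level. In the same cells, 4 other erythroid readouts (the adult globins summed, Klf1, Rhd and Alas2) stood at 6.83% to 7.94% and 6.48% to 10.1% of their free levels. Over all HPSC, Gata1 therefore stood no higher than these readouts of free erythroid RNA. Epor, an erythroid gene outside these 4, stood at 9.34% and 6.70%. In the 36 and 22 HPSC with a UMI of Cpa3, a protease gene of mast cells and basophils, Gata1 was at 23.9 and 28.8 CPM (14 and 11 UMIs), 2.28-fold (1.12 to 4.43) and 2.40-fold (1.09 to 4.86) above the other HPSC. Klf1 was 1.43-fold (0.831 to 2.65) and 2.34-fold (1.04 to 6.53) lower in the same cells. Rhd was 2.11-fold (1.22 to 3.95) lower in library 1 but 1.40-fold (0.844 to 2.225) higher in library 2. Without the Cpa3 cells, the adult globins of HPSC went from 7.90% to 8.40% of the free level in library 1. In library 2 they went from 7.27% to 6.23%, and Alas2 from 7.87% to 6.82%. The readouts thus differed in direction in library 2, and the part of free RNA in the Gata1 difference was not tested. Hepatoblasts, a cell type outside the blood lineage, had a Gata1 UMI in 4.17% (1 of 24) and 22.6% (7 of 31) of thinned cells, beside the 4.27% and 5.77% of HPSC. Their median was 22391 and 21910 UMIs per cell against 16053 and 14956 in HPSC. Gata1 in hepatoblasts stood at 25.7% and 40.2% of its free level, above the 9.11% and 12.6% of the adult globins in them. The source of these UMIs was not tested.

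Gata2 in HPSC stood at 321% and 376% of its free level, so it was not background there, and 0 of 24 and 0 of 31 thinned hepatoblasts had a Gata2 UMI, which allows up to 3 of 24 and 3 of 31. The few Gata2 UMIs of Ery 2 were 4.13% and 11.3% of the free level and those of Ery 6 were 5.34% and 5.50%. At levels so far under that of free RNA, the Gata2 UMIs of the erythroblasts cannot be told apart from it.

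**Figure D2:**
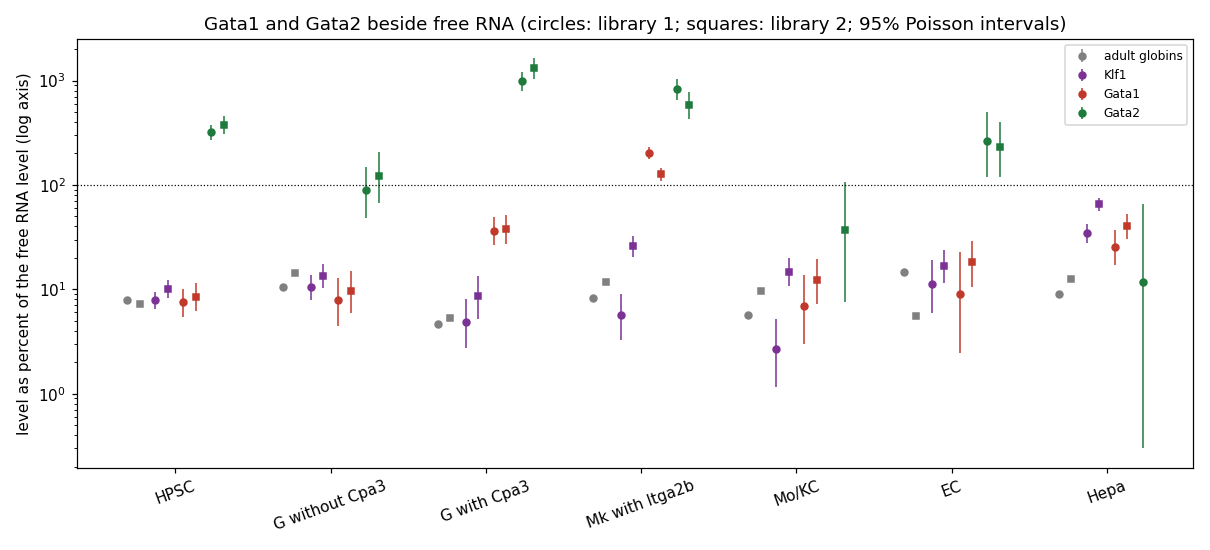
Levels of Gata1, Gata2, Klf1 and the adult globins as percentages of their levels in free RNA (log axis, 95% Poisson intervals, circles for library 1 and squares for library 2). Groups are HPSC, G cells without and with a Cpa3 UMI, Mk cells with a UMI of Itga2b (encoding the integrin CD41), Mo/KC, EC and Hepa. Gata1 of HPSC lies near 8% in both libraries. Gata2 lies above 300% in HPSC, in the Mk cells with Itga2b and in the G cells with Cpa3. In the G cells without Cpa3 it lies at 88.6% and 122%. Gata2 is not drawn where a group had no UMI of it (Mo/KC in library 1, Hepa in library 2).

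The partners of GATA1 differed in where they stood highest. The plot of all 9 genes over 13 groups gives every level. As CPM, Gata1, Zfpm1 and Gfi1b were highest in Mk in both libraries, although the interval of Mk overlapped that of the next group for Gata1 in library 2 (Ery 2) and for Zfpm1 in library 1 (Ery 4). Nfe2 was highest in Ery 6 in both libraries, apart from all other groups. Ldb1 was highest in Ery 1, apart from the next group only in library 2. Tal1 was highest in Ery 5 and Ery 4, which overlapped in each library. Lyl1 was highest in Ery 5 in library 1 and in Mk in library 2, and Lmo2 in Ery 6 and in Ery 1, so the libraries differed in the group at the top of these genes. The order turned on the scale. As non-globin CPM, Gata1, Tal1 and Lyl1 were highest in Ery 5, Lmo2 and Nfe2 in Ery 6 and Ldb1 in Ery 1 in both libraries, Gfi1b was highest in Mk in library 1 and in Ery 5 in library 2, and Zfpm1 in EryP and in Ery 5.

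**Figure D3:**
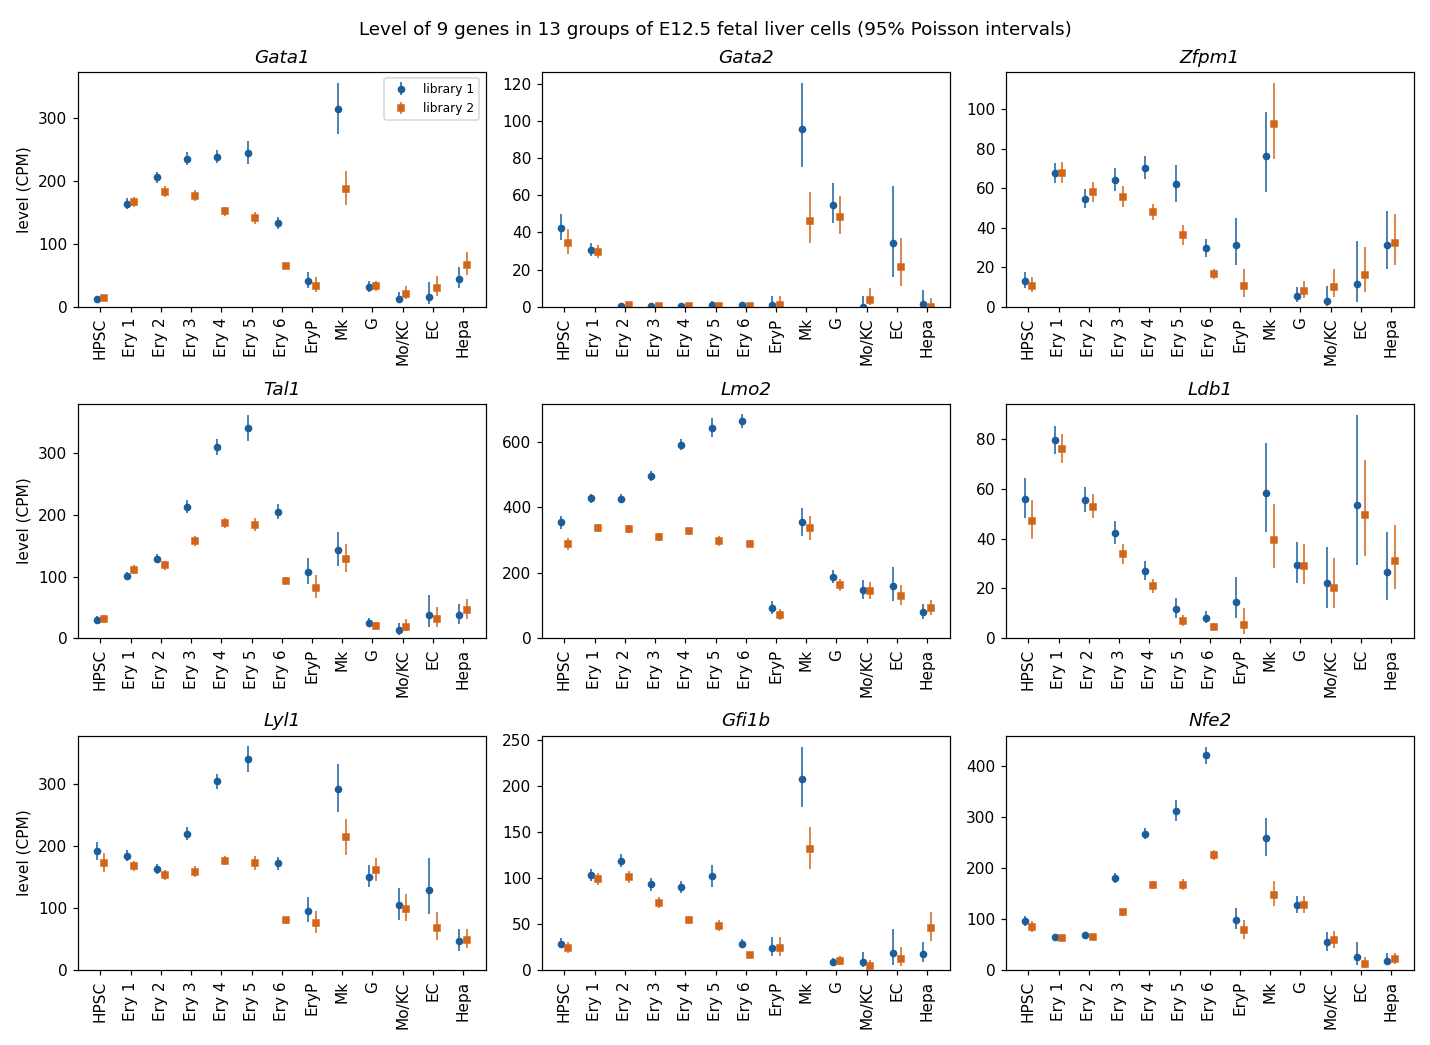
CPM of the 9 genes in 13 groups of cells, with a point per library and 95% Poisson intervals (each panel has its own vertical axis from 0). Gata2 is high in HPSC, Ery 1, Mk, G and EC, Ldb1 declines from Ery 1 to Ery 6, and Nfe2 is highest in Ery 6.

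In the step from HPSC to Ery 1, the genes called higher encode GATA1 itself, its cofactor FOG1, the repressor GFI1B and TAL1. A gene was called when it was at least 2-fold apart in the same direction in each library, among genes with a mean of at least 10 CPM, and 4 of the 9 were called higher and 0 lower. Of the 6832 genes tested, 5.34% were called higher and 11.5% lower. Beside Gata1, Zfpm1 went from 13 and 10.6 CPM to 67.8 and 67.6 CPM, 5.19-fold (3.84 to 7.19) and 6.40-fold (4.51 to 9.39) higher. Gfi1b went from 29.0 and 24.3 CPM to 103 and 98.8 CPM, 3.55-fold and 4.06-fold. Tal1 went from 30.4 and 31.0 CPM to 101 and 111 CPM, 3.32-fold and 3.59-fold. These 3 partners thus stood higher already where Gata2 was still present.

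The adaptors and LYL1 differed less at this step. Ldb1 was 1.42-fold (1.21 to 1.67) and 1.61-fold (1.35 to 1.94) higher, Lmo2 1.21-fold and 1.17-fold higher, and Lyl1 0.96-fold and 0.969-fold the HPSC level with intervals that include 1. Nfe2 was the exception among the partners, 1.49-fold and 1.37-fold lower in Ery 1 than in HPSC. Between Ery 1 and Ery 2, 0 of the 9 genes were called higher and 1, Gata2, lower, against 1.86% higher and 4.29% lower of 6124 genes tested. The median log2 change of the 9 genes at that step was -0.01, beside -0.16 over all genes tested, so Gata2 moved apart from its partners there.

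Between HPSC and Ery 6 the globin load changed the counts of calls. On the CPM scale, 3 of the 9 genes were called higher (Gata1, Tal1 and Nfe2) and 2 lower (Gata2 and Ldb1), while of 5815 genes tested 6.67% were higher and 75.4% lower. As non-globin CPM, 7 were higher and the same 2 genes lower, against 16.4% and 53.3%. The median log2 change of the 9 genes was 0.45 on the first scale and 2.16 on the second, beside -3.01 and -1.31 over all genes tested.

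As CPM, Nfe2 was the only partner whose level was highest at the end of the erythroid series in both libraries. As non-globin CPM, Lmo2 was highest there as well. Nfe2 went from 64.4 and 62.6 CPM in Ery 1 through 180 and 113 in Ery 3 and 312 and 167 in Ery 5 to 420 and 226 CPM in Ery 6. That was 6.52-fold (5.97 to 7.13) and 3.60-fold (3.29 to 3.96), and as non-globin CPM 15.4-fold and 16.4-fold. Per cell it was 1.16-fold and 1.17-fold of Ery 1, so the number of Nfe2 UMIs in a cell was nearly kept while the cell's total UMIs were lower.

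Ldb1 went the other way on every scale. From 79.5 and 75.9 CPM in Ery 1 it went to 42.2 and 33.7 in Ery 3, 11.6 and 6.83 in Ery 5 and 8.26 and 4.74 CPM in Ery 6. That was 9.63-fold and 16.0-fold lower, 4.08-fold and 3.53-fold lower as non-globin CPM, and 54.2-fold and 49.1-fold lower per cell. LMO2, the adaptor that LDB1 binds, had a different course. Lmo2 was at 427 and 336 CPM in Ery 1 and 663 and 289 CPM in Ery 6, higher in library 1 and lower in library 2, but 3.66-fold (3.51 to 3.83) and 3.90-fold (3.70 to 4.10) higher in both as non-globin CPM. Per cell Lmo2 was 3.63-fold and 3.58-fold lower.

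Tal1 and Lyl1, which encode related factors, had similar courses after Ery 1. As non-globin CPM, Tal1 went from 102 and 114 in Ery 1 to 696 and 691 in Ery 5 and 490 and 434 in Ery 6, and Lyl1 from 187 and 172 to 696 and 647 and then 410 and 374. They differed at the step from HPSC to Ery 1, where Tal1 was called higher and Lyl1 was not. Among Ery 1 to Ery 6, Zfpm1 and Gfi1b had their maximum in Ery 5 on the same scale. Zfpm1 reached 127 and 136 and Gfi1b 209 and 182, and in Ery 6 they stood at 70.4 and 76.5 and at 69.1 and 76.0. In Ery 6 Gfi1b was thus below its non-globin level of Ery 1, by 1.51-fold and 1.33-fold.

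Ordering the cells by their share of adult globin UMIs, without regard to the subclusters, gave a similar sequence of events. The cells of Ery 1 to Ery 6 were cut into 10 groups of equal size in each library. The first group, of 476 and 443 cells, was larger than Ery 1, of 375 and 359 cells, so the step of Gata2 was not resolved more finely. As non-globin CPM, Gata2 was at 27.3 and 20.3 in the group with the least globin and at 1.10 and 6.23 in the next. Gata1 went from 171 and 172 in the lowest group to 470 and 448 in the seventh, 442 and 454 in the eighth and 234 and 226 in the last. Nfe2 was highest in the last group in both libraries, at 1000.3 and 1047.6, and Ldb1 was lowest there, at 6.89 and 13.5. Tal1 was highest in the eighth group, at 669 and 662. As non-globin CPM, the genes thus had their maxima in the order Gata2 and Ldb1, then Gata1 and Tal1, then Nfe2, in each library. This order turned on the scale. Per cell, Gata1 was at 3.86 and 4.25 UMIs in the first group against 1.47 and 1.22 in the seventh. Tal1 was at 2.33 and 2.73 UMIs per cell in the first group against 1.76 and 1.54 in the eighth.

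**Figure D4:**
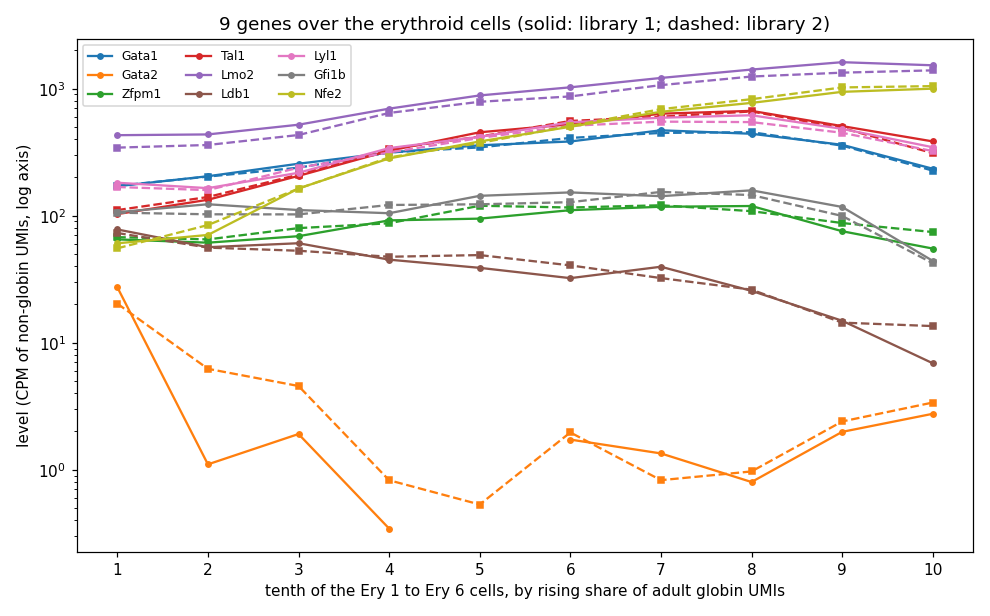
Non-globin CPM (log axis) of the 9 genes in 10 groups of erythroid cells of equal size, ordered from the lowest to the highest share of adult globin UMIs on the horizontal axis, with solid lines for library 1 and dashed lines for library 2. Gata2 drops after the first group, to 1.10 in library 1 and 6.23 in library 2, Nfe2 climbs throughout and Ldb1 is lowest at the end, and points without a UMI are left out.

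The Ery 1 cells in which Gata2 was detected differed from the others in further genes. A Gata2 UMI was in 103 of 375 and 98 of 359 cells before thinning and in 38 and 33 after it, and the latter were compared with the rest, so their Gata2 level is fixed by the choice. These cells had less of the erythroid factor Klf1, 182 and 186 CPM against 461 and 437 CPM in the other Ery 1 cells, which was 2.54-fold (2.13 to 3.04) and 2.35-fold (1.95 to 2.87) lower. The blood group gene Rhd was 3.61-fold and 4.43-fold lower in them. By contrast, 1 further erythroid gene, whose values are not reported here, was higher in them in both libraries. Erythroid genes thus went both ways. Higher in them were Nfe2, at 138 and 134 CPM against 58.5 and 57.6 CPM, and Mpo, which encodes myeloperoxidase of granulocyte precursors, at 127 and 154 CPM against 14.4 and 25.5 CPM. Cpa3 was at 69.6 and 43.1 CPM against 4.38 and 4.84 CPM, 15.9-fold (10.3 to 24.7) and 8.90-fold (5.24 to 14.9) higher. Tal1 was 1.38-fold (1.05 to 1.84) and 1.40-fold (1.05 to 1.90) lower. Gata1 was 1.28-fold lower in library 1 and 1.06-fold higher in library 2, an interval that includes 1 in the second. The Ery 1 cells with Gata2 had fewer UMIs, with a median of 19500 and 18793 against 27025 and 26793, and the part of depth in these differences was not tested.

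The Mk cluster had both GATA genes. Gata1 stood at 313 CPM (275 to 355) and 187 CPM (162 to 216), the highest CPM of any group but not the highest non-globin CPM (318 and 199, below the 499 and 526 of Ery 5), and Gata2 at 96.1 CPM (75.5 to 121) and 46.3 CPM (34.1 to 61.6). Relative to HPSC, Gata1 was 24.5-fold (17.7 to 34.6) and 13.3-fold (9.54 to 18.9) higher, a log2 change of 4.18 ± 0.624 (SD, n = 2 technical libraries). Gata2 was 2.27-fold (1.69 to 3.02) higher in library 1 and 1.34-fold (0.931 to 1.91) in library 2, where the interval includes 1, a log2 change of 0.80 ± 0.537. The ratio of Gata2 to Gata1 UMIs was 0.307 and 0.247, above the 0.188 and 0.178 of Ery 1. The ratio of Ery 1 was 0.613-fold (0.457 to 0.830) and 0.720-fold (0.506 to 1.04) that of Mk, and the interval includes 1 in library 2. Both genes were seen together in 10 of 46 and 6 of 56 thinned Mk cells, after 33 and 0 shallower cells were left out.

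Among the partners in Mk, Zfpm1 and Gfi1b stood out. Zfpm1 was at 76.6 and 92.7 CPM, 5.87-fold (3.92 to 8.86) and 8.78-fold (5.85 to 13.5) above HPSC, and Gfi1b at 208 and 131 CPM, 7.17-fold (5.55 to 9.30) and 5.39-fold (4.04 to 7.24) above. Tal1 was at 143 and 129 CPM, 4.69-fold and 4.16-fold above. Together with Gata1 these made 4 of the 9 genes called higher and 0 lower, against 8.63% and 6.43% of 7197 genes tested. Nfe2, whose product is needed for platelet release, was 2.69-fold (2.25 to 3.22) and 1.73-fold (1.41 to 2.12) higher. Lyl1 was 1.52-fold and 1.24-fold higher, and Lmo2 and Ldb1 were within 1.19-fold of HPSC in each library. The median log2 change of the 9 genes was 1.11, beside -0.01 over all genes tested.

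Not all cells of the Mk cluster carried megakaryocyte transcripts. Itga2b, which encodes the megakaryocyte integrin CD41, had a UMI in 60 of 79 and 45 of 56 cells. All 74 and 47 Gata2 UMIs of the cluster were in those cells, and Gata1 was at 346 and 211 CPM in them against 74.9 and 36.6 CPM in the others. The platelet factor gene Pf4 was at 11791 and 12785 CPM against 32.1 and 278 CPM. The 19 and 11 cells without Itga2b had 0 Gata2 UMIs, which allows up to 32.1 and 22.0 CPM, but held 11 and 7 UMIs of Gata4 and 8 and 11 of Gata6, relatives known from mesoderm and endoderm, against 1 and 0 and against 0 and 0 in the Itga2b cells. The mesenchymal genes Ptn and Col3a1 were at 2784 and 1537 CPM and at 535 and 542 CPM in them. This split was chosen after the data were seen. With the Itga2b cells alone, the log2 change over HPSC was 4.33 ± 0.606 for Gata1 and 1.0 ± 0.521 for Gata2.

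**Figure D5:**
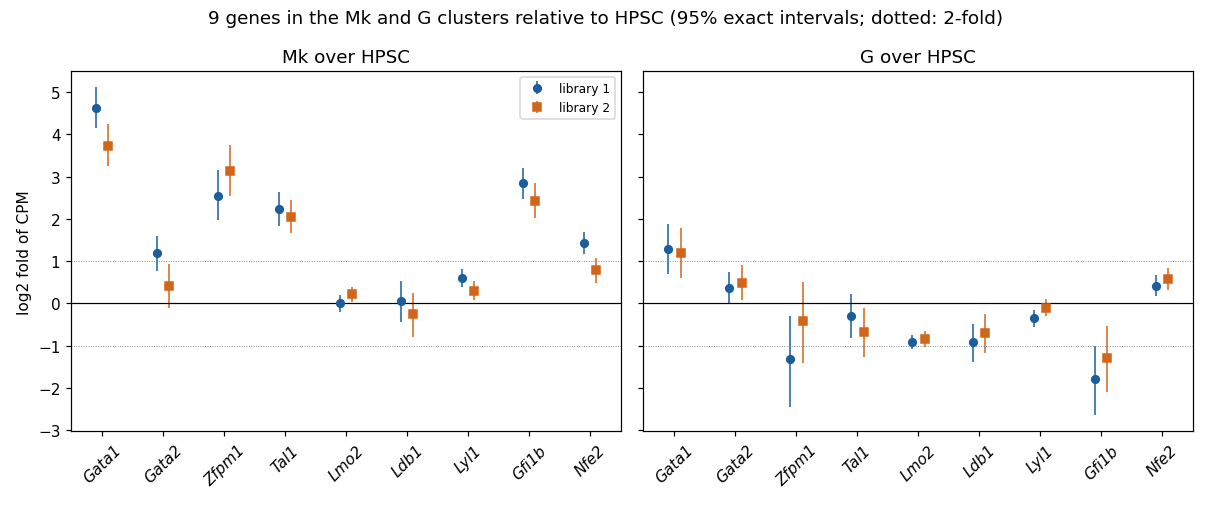
log2 fold of CPM of the 9 genes in Mk and in G relative to HPSC, with a point per library, exact 95% intervals and dotted lines at 2-fold. Gata1, Zfpm1, Tal1 and Gfi1b lie above 2-fold in Mk in both libraries, whereas in G only Gata1 does and Gfi1b lies below.

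Mk cells with a Gata2 UMI after thinning, 13 and 8 against 33 and 48 without, had higher levels of several partners. Gata1 was at 496 and 325 CPM against 256 and 172 CPM, 1.94-fold (1.46 to 2.56) and 1.89-fold (1.27 to 2.76) higher. Tal1 was 1.96-fold and 1.95-fold, Lyl1 1.66-fold and 1.85-fold, Lmo2 1.52-fold and 1.61-fold and Nfe2 2.07-fold and 3.16-fold higher. Pf4 was lower in them, by 2.16-fold (2.01 to 2.32) and 2.60-fold (2.37 to 2.86). Zfpm1 was not higher, at 0.949-fold and 0.920-fold. Gfi1b, at 1.43-fold and 1.63-fold, and Ldb1, at 1.53-fold and 1.24-fold, had intervals that include 1 in each library. Rhd was 4.25-fold higher in library 1 but 8.86-fold lower in library 2. In library 2 the cells without Gata2 included the 11 cells without Itga2b, and the part of such cells in the differences was not tested.

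The G cluster had Gata2 at the level of HPSC or above, with Gata1 well below its level in Ery 1. Gata2 stood at 55.0 CPM (44.9 to 66.6) and 48.5 CPM (39.1 to 59.5), 1.30-fold (1 to 1.68) and 1.40-fold (1.05 to 1.87) of HPSC, a log2 change of 0.43 ± 0.0793 (SD, n = 2 technical libraries). Gata1 stood at 31.2 CPM (23.7 to 40.2) and 32.2 CPM (24.6 to 41.3), 2.45-fold (1.63 to 3.70) and 2.28-fold (1.53 to 3.45) of HPSC, a log2 change of 1.24 ± 0.0692. Gata1 was at 18.3% and 19.4% of the free level, above the 8.40% to 8.99% and 7.44% to 13% of the 4 erythroid readouts in the same cells. The ratio of Gata2 to Gata1 UMIs, 1.76 and 1.51, was the nearest to that of HPSC among the blood cell groups with at least 10 UMIs of each gene.

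Most of the 9 genes were called in neither direction in G. Of 8 genes tested, 1 was called higher (Gata1), 1 lower (Gfi1b) and 6 neither, against 5.47% and 4.51% of 6963 genes tested, and Zfpm1 was under the filter at 5.29 and 7.91 CPM. Gfi1b was at 8.46 and 10.0 CPM, 3.43-fold and 2.43-fold lower, Lmo2 1.88-fold and 1.78-fold lower and Ldb1 1.89-fold and 1.62-fold lower. Tal1 was 1.23-fold and 1.59-fold lower, with an interval that includes the HPSC level in library 1. Nfe2 was the partner that stood higher, at 128 and 128 CPM, 1.34-fold (1.13 to 1.58) and 1.5-fold (1.26 to 1.79) of HPSC. The median log2 change of the 8 genes was -0.35, beside -0.20 over all genes tested.

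Most Gata2 of the G cluster was in the cells that carried Cpa3. A Cpa3 UMI was in 43 of 157 and 36 of 130 cells, which held 90 of the 104 and 78 of the 92 Gata2 UMIs. Gata2 was at 130 and 120 CPM in them against 11.7 and 11.2 CPM in the others, 11.1-fold (6.31 to 21.2) and 10.7-fold (6.00 to 20.4) higher. Gata1 was at 62.1 and 63.1 CPM against 13.3 and 16.1 CPM, 4.66-fold (2.57 to 8.86) and 3.93-fold (2.25 to 7.08) higher. Ms4a2, which encodes a chain of the IgE receptor, was at 43.3 and 23.1 CPM against 0.833 and 0.803 CPM. Mcpt8, another mast cell and basophil marker, was 6.93-fold (1.38 to 67.0) higher in library 1. In library 2 it was at 1.15-fold (0.179 to 5.91), an interval that includes 1. The neutrophil granule gene Ngp was at 7.22 and 4.62 CPM against 16604 and 10330.3 CPM. Other granule genes differed far less, with Mpo at 1.20-fold and 0.853-fold and Elane at 0.345-fold and 0.143-fold of the cells without Cpa3. Of the 6 mast cell and basophil markers, 4 were highest in G and Cma1 and Gzmb had 0 UMIs there, and the list summed to 176 and 121 CPM in G against 25.8 and 28.2 CPM in HPSC.

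In the G cells without Cpa3, Gata1 was at 7.84% and 9.68% of the free level, below the 10.5% to 11.9% of the 4 erythroid readouts in those cells of library 1 and within their 8.79% to 16.3% in library 2. Epor, an erythroid gene outside these 4, was lower than Gata1 there, at 6.93% and 5.38% from 8 UMIs in each library. Gata1 of the G cluster was thus above these readouts in the cells with Cpa3, where it was at 36.5% and 38.0% and they were at 3.38% to 4.89% and 4.85% to 8.65%, and not in the others. The split was chosen after the data were seen. When cells with a Cpa3 UMI were left out of G and of HPSC, the log2 change of Gata2 from HPSC to G was -1.43 and that of Gata1 0.38, so the direction for Gata2 rests on the Cpa3 cells.

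The G cells were also divided by granule genes. This division was not separate from that by Cpa3, since the cells with Cpa3 had far less of the late gene Ngp. The part of the Cpa3 cells in the levels below was not tested. Cells thinned to 3600 UMIs were sorted by whether they had at least 2 UMIs of an early set (Ctsg, Elane, Mpo, Prtn3) and of a late set (Camp, Ltf, Ngp, S100a8, S100a9). Gata2 was at 88.0 and 86.0 CPM in the 49 and 55 cells with early granule genes alone, at 21.1 and 3.48 CPM in the 34 and 42 cells with early and late granule genes, and at 2.88 and 3.55 CPM in the 52 and 32 cells with late ones alone. Gfi1b was at 15.4 and 16.4 CPM, then 3.52 and 3.48 CPM, then 0 UMIs, which allows up to 8.64 and 10.7 CPM. Nfe2 did not follow, at 122 and 148, 118 and 81.7, and 167 and 153 CPM. Within HPSC, the 36 and 22 cells with a Cpa3 UMI had Gata2 at 98.9 and 60.3 CPM against 30.7 and 31.0 CPM, 3.22-fold (2.27 to 4.53) and 1.95-fold (1.17 to 3.12) higher. Nfe2 was 1.74-fold (1.35 to 2.23) and 2.08-fold (1.54 to 2.79) higher in them.

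Among the remaining clusters, EC had Gata2 within counting error of HPSC. EC, in which GATA2 is known to act, had Gata2 at 34.3 CPM (15.7 to 65.2, 9 UMIs) and 21.2 CPM (10.9 to 37.0, 12 UMIs), which was 261% and 231% of the free level, with Ldb1 at 53.4 and 49.4 CPM and Lmo2 at 160 and 129 CPM. Gata1 of EC rested on 4 and 17 UMIs. Mo/KC had 0 and 3 Gata2 UMIs (the 0 allows up to 4.42 CPM) but Lmo2 at 147 and 145 CPM, Lyl1 at 105 and 99.4 CPM and Nfe2 at 54.5 and 58.7 CPM. EryP, the primitive erythroblasts, had 1 Gata2 UMI in each library and Gata1 at 40.7 and 33.1 CPM. As non-globin CPM this was 175 and 190, against 317 and 297 in Ery 6. Globin took 76.7% and 82.5% of the UMIs of EryP.

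Among known binding partners and targets, taken as lists of genes chosen with earlier results of these data known, the targets of GATA1 were higher in Ery 6. From HPSC to Ery 6, all 5 targets analysed here were called higher, beside 6.67% of all genes tested, whereas 2 of 5 were in Ery 1 and 1 of 5 in Mk, where Gata1 was high too. The largest was Alas2, the first enzyme of heme synthesis in red cells, from 78.0 and 60.2 CPM to 3790 and 1962 CPM, and Slc4a1, the membrane anion exchanger, was 36.4-fold and 17.0-fold higher. Epor, the erythropoietin receptor, had the smallest change, 8.25-fold and 5.27-fold, after Bcl2l1, the survival factor, at 14.4-fold and 7.48-fold. Ahsp was not analysed here. Klf1, a further target of the list, is also a marker by which the authors named the erythroid clusters, so its call is not separate from the grouping. In HPSC, Alas2 stood at 7.94% and 7.87% of its free level, Klf1 at 7.85% and 10.1% and Epor at 9.34% and 6.70%. The part of free RNA in the size of the target folds was not tested.

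Of 10 partners of LDB1, 9 were tested and 8 were called lower as CPM and 5 as non-globin CPM. The E protein gene Tcf4 went from 61.2 and 63.0 CPM to 0.703 and 0.202 CPM, and Lmo1, a relative of Lmo2, from 29.0 and 25.3 CPM to 0.176 CPM and 0 UMIs (up to 0.303 CPM), while Ssbp3 and Ssbp2, whose products stabilise LDB1, were the highest of the list, at 1.23-fold and 1.42-fold and at 1.05-fold and 1.06-fold as non-globin CPM. Of 12 corepressor genes of GFI1B and FOG1 (with Gfi1), 9 were tested, 8 called lower as CPM, and 7 lower and 1 higher as non-globin CPM. Rcor2, a scaffold of the demethylase complex, was lowest, from 22.3 and 19.5 CPM to 0.351 and 0.101 CPM. Rbbp4, a histone chaperone, was the gene called higher, 2.15-fold and 2.31-fold as non-globin CPM. Of all genes tested, 75.4% were lower as CPM and 53.3% as non-globin CPM, so 8 and 5 of the 9 LDB1 partners are near the background on both scales, and nothing particular to either list is read from these counts.

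The small MAF proteins are the partners of NF-E2, and Mafk, like Nfe2, was higher in Ery 6 than in HPSC. Of 8 genes of this list 4 were tested there. As CPM 1 was called higher, Mafk, 5.64-fold and 3.02-fold, beside 6.67% of all genes tested. As non-globin CPM 3 were called higher, beside 16.4% of all genes tested. These were Mafk, 13.2-fold and 13.6-fold, Mafg, 7.78-fold and 8.29-fold, and the heme-sensing repressor Bach1, 3.91-fold and 4.18-fold. In Mk, where Nfe2 was higher too, 0 of the 5 tested genes of this list were called, with Mafg at 2.70-fold and 1.94-fold. Of all genes tested in Mk, 8.63% were called higher and 6.43% lower. Of the 6 other GATA and FOG genes, 0 passed the filter in Ery 6 or Mk, and Trps1, tested in G alone, was at 1.05-fold and 1.06-fold.

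In Mk, 1 of 9 tested partners of LDB1 was called lower, Lmo1, by 22.3-fold and 25.6-fold, and 0 of 10 corepressors were called. The size of the Lmo1 folds is uncertain, since they rest on very few Lmo1 UMIs in Mk. Of 5 targets of GATA1, 1 was higher there, Epor. These counts stand beside 8.63% higher and 6.43% lower of all genes tested in Mk, and those in G beside 5.47% and 4.51%. In G, Lmo4, another LIM-only gene, was 3.80-fold and 3.56-fold higher and Tcf4 6.81-fold and 3.86-fold lower. Gfi1, the relative of Gfi1b known from granulocyte development, was 2.11-fold and 3.48-fold higher in G, where Gfi1b was lower. Kdm1a, the demethylase that GFI1B recruits, was 2.12-fold and 2.15-fold lower there, Rcor2 3.52-fold and 2.47-fold lower, and 0 of 4 targets of GATA1 were called.

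At the first steps, 2 of the 5 targets of GATA1 were called higher from HPSC to Ery 1 and 2 from Ery 1 to Ery 2, with a median fold of 0.948 and 1.54. For LDB1 partners, 2 of 9 and 2 of 8 were called lower, and for corepressors 1 of 10 and 0 of 9 were. Of the NF-E2 list, 0 of 4 and 0 of 3 were called. Of all genes tested, 5.34% were called higher and 11.5% lower at the first of these steps and 1.86% and 4.29% at the second.

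The genes with the levels most like those of Gata1 over the 13 groups included 1 of its partners. Likeness was taken as Pearson's r of log2(CPM + 1) over the 13 groups, as the lower value of the libraries, for 7355 genes. These groups share their library, depth and free RNA, so r describes them and was not tested. The highest were Lmna with 0.936, Smim1 with 0.929, Mfsd2b with 0.920, Epor with 0.905 and Zfpm1 with 0.891, and Tal1 was at place 9 and Gfi1b at place 13. Lmna, which encodes the lamin A of the nuclear envelope, was at 11 and 18.6 CPM in HPSC, 141 and 137 in Ery 1 and 312 and 227 CPM in Mk. For Gata2 the highest were Rab37 with 0.922, Tnik with 0.918, Rcor2 with 0.915, Sept1 with 0.889 and Spns2 with 0.886. Ldb1, at place 1459, was the most like Gata2 among the other 8 genes, and Gata1 was at place 6735 with an r of -0.20 and -0.30.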

How the data were processed

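Single-cell suspensions of E12.5 liver were sequenced by the authors on the 10x Genomics Chromium system as 2 technical replicates of 1 liver. The submitters' processing notes name bcl2fastq 2, Cell Ranger 2.1.1, Seurat 3.2.0 and the build mm10. The authors deposited raw and filtered tables of UMI counts per gene and cell, and a table of cell names with the cluster and cell type of each cell, whose groups were used as given. The members and lists were chosen with earlier results of these data known.

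Counts were summed per library and group over the cells of that table with pandas 2.3.3 under Python 3.11.15 and divided by all UMIs of the group, per 1000000 (CPM). Folds were computed in each library with exact conditional intervals, levels with exact Poisson and shares with Clopper-Pearson intervals (95%, scipy 1.17.1), all for counting error only. Depth was 51969226 and 62738015 UMIs. Cells were thinned to 3600 UMIs with seed 1. A gene was called at 2-fold in each library among genes with a mean of at least 10 CPM over both groups and libraries. A count of 0 was set to 3 for a bound. No doublet caller was run here, and an alternative leaves out the 4% of cells with the most UMIs. Free RNA came from raw barcodes with 1 to 50 UMIs. Named genes were all 9 members, the 2 highest and 2 lowest of each partner list where values bear on a statement, list genes called where few were, and the 5 genes most like Gata1 and Gata2. Further genes (Pf4, Ptn, Col3a1, Gata4, Gata6, Ngp, Ms4a2, Mcpt8, Mpo, Elane, Rhd) were named after their values were seen. The values of 1 further erythroid gene are not reported here. The scripts were tested on simulated data.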

Additional observations from a re-analysis of the deposited data

Results flagged for a closer look

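Barcodes outside the authors' filtered count tables, with at least 1000 UMIs and 200 genes, also carried the GATA genes. There were 168 such barcodes in library 1 and 3311 in library 2. They held 70 Gata1 UMIs in library 1 (177 CPM) and 818 in library 2 (121 CPM), a signal in data outside every comparison above, near or below the 170 and 166 CPM of free RNA. Gata2 had 88 UMIs there in library 2 (13.1 CPM, beside 9.18 CPM in free RNA) and 0 in library 1, which allows up to 7.58 CPM. The cell type of these barcodes was not analysed here.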

How the results depend on the processing

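No paired analysis was possible because the series holds a single condition and nothing was tested. Values here are log2 changes over HPSC unless named otherwise, and the cause of each move was not tested. For Gata1 in Ery 6 (2.78), leaving out globin gave 4.49, UMIs per cell 1.47, and subtracting 10% free RNA 6.34 (a bound), while the last against the first of the 10 groups by globin share, which compares erythroid cells alone, gave -1.67, the opposite sign. For Gata2 in Ery 6 (-6.01) the same 4 gave -4.30, -7.32, -6.54 (a bound) and -5.04, and cells with at least 1000 genes and under 10% mitochondrial UMIs -5.80. The log2 ratio of Gata2 to Gata1 (-8.79) was -12.9 (a bound) after subtraction and -3.38 over the 10 groups. Gata1 in Mk was 7.94 (a bound) after subtraction. Gata1 in G (1.24) was 1.01 per cell, 4.02 (a bound) after subtraction, 1.41 without the 4% of cells with the most UMIs, 1.12 as the mean of the cells' own CPM and 0.38 without Cpa3 cells. The subtraction left no Gata1 UMIs in HPSC and no Gata2 UMIs in Ery 6, so these values are bounds and not estimates. Gata2 in G (0.43) was 0.20 per cell, 0.25 as the mean of cells and -1.43 without Cpa3 cells, a reversal (an alternative chosen after the data were seen, as were the Itga2b cells of Mk). Among the other 7 genes the sign turned for Zfpm1 (-0.41) and Lmo2 (-0.86) in Ery 6 per cell, for Lyl1 (1.07) and Gfi1b (1.42) in Ery 6 without globin, for Gfi1b (1.07) in cells passing the filter on genes, for Lmo2 in Mk per cell (-0.12) and as the mean of cells (-0.19), and for Ldb1 in Mk without library 2 (0.0626, against -0.25 without library 1), without the top 4% (0.0895) and as the mean of cells (0.21). Genes called higher or lower numbered 388 and 4387 in Ery 6, 621 and 463 in Mk and 381 and 314 in G. At 4-fold, 250 were higher in Ery 6, 292 and 218 were called in Mk and 195 and 91 in G. Without globin, 954 were higher in Ery 6. With no filter on low levels, 9054 were lower in Ery 6, 1370 and 826 were called in Mk and 663 and 956 in G. With either library alone, 688 to 717 were lower in Mk and 456 to 586 in G. Gata1 ranged from 2.18 to 3.38 in Ery 6, 3.73 to 4.62 in Mk and 1.19 to 1.29 in G, Gata2 from -6.10 to -5.91, 0.42 to 1.18 and 0.38 to 0.49, and the ratio from -9.30 to -8.28. Of 203 log2 values of the other 7 genes in Ery 6, Mk and G under the alternatives, the 10 groups left out, 159 moved by less than 1 SD between libraries with the same sign. Of 50 shares of cells with a UMI, 26 moved by more and none was a main comparison. Depth limits Gata2 from Ery 2 onwards, where 1 to 9 UMIs per group remain.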

Other observations

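Hepatoblasts carried Gata1 above the level of globin from free RNA. Gata1 stood at 25.7% and 40.2% of its free level in Hepa and the erythroid factor Klf1 at 34.5% and 65.4%, while the adult globins stood at 9.11% and 12.6%. Of the partners in Hepa, Gfi1b was at 17.2 and 45.7 CPM and Tal1 at 37.5 and 45.7 CPM. The cells were 33 and 31 in number, and the source of these UMIs was not tested.

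Within Ery 1, 4 groups of equal size ordered by globin share gave Gata2 at 45.9, 47.5, 16.8 and 14.6 CPM in library 1 but at 30.4, 29.7, 28.3 and 29.6 CPM in library 2, so the libraries differed in whether Gata2 was lower in the Ery 1 cells with more globin.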
